A study of Danio rerio with 4 samples.

Results

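The genes described here are the sestrins sesn1, sesn2 and sesn3, the growth regulator ddit4 (also called redd1) and the stanniocalcins stc1 and stc2a. They were taken as every probe that the platform's annotation gives one of these symbols: 6 genes with 8 probes, of 15528 named genes and 43603 probes on the array. They were chosen by the log2 fold changes of sesn2, ddit4 and stc2a, which were higher in hearts that overexpressed bmp2b, so their values and calls in this comparison are given as a description, not as a test.

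RNA from whole hearts of zebrafish embryos was hybridised to single-colour Agilent arrays. The 2 wild-type (WT) arrays and the 2 Bmp2b arrays held hearts from WT embryos and from embryos carrying Tg(hsp70l:bmp2b)fr13, a transgene that expresses the BMP ligand gene bmp2b from a heat shock promoter in the whole embryo, not in the heart alone. All embryos, controls included, were heat-shocked at 18 hours post fertilization (hpf) for 30 min at 37 °C, and whole hearts, taken out manually between 21 and 23 hpf, were pooled. The labels do not say whether samples came from separate clutches, so any p-value measures the spread between these arrays.

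Sestrins are stress-induced proteins that hold back the growth kinase complex mTORC1. Sesn2 binds the GATOR2 complex and releases it when the amino acid leucine is plentiful, and in mammals SESN2 is a target of the stress factor Atf4 and SESN3 a FoxO target. Ddit4 restrains mTORC1 through the Tsc1-Tsc2 complex and is induced by low oxygen, glucocorticoids and Atf4 in mammals. Stanniocalcins are secreted glycoproteins first known from calcium control in fish, and mammalian STC2 inhibits the protease PAPP-A, which frees insulin-like growth factors (Igf) from their binding proteins.

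The array signal differed between the groups. The 75th percentile of raw intensity was 445 and 424 for WT against 93.5 and 250 for Bmp2b, and 57.4%, 57.1%, 34.1% and 46.2% of probes lay above background, set at 2 times the array's 5th percentile. Slide 3 held both Bmp2b arrays while slides 1 and 2 held the WT arrays, so slide and genotype cannot be told apart. The root mean square difference of the WT arrays was 0.0711 on the log2 scale over 25 bright probes with 5 spots each, less than the 0.118 that the spread between spots gives, and that of the Bmp2b arrays was 0.896 against 0.120. The WT arrays may therefore hold the same RNA, and counts of calls are given below both with them as 2 samples and as 1. Levels below are log2 intensities after quantile normalization, and log2 fold changes are Bmp2b minus WT with the standard error (SE) of a limma fit over 24454 tested probes. As a check of the labels, bmp2b lay at 7.86 and 8.09 in WT and at 13.74 and 14.03 in Bmp2b (log2 fold change 5.91 ± 0.17, SE; limma adjusted p = 0.0116). With the WT arrays as 1 sample bmp2b was not called, and 0 probes were called higher and 1 lower. A call lost in that setting therefore does not set a gene apart.

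Of the sestrins, sesn2 had the largest difference of the 6 genes, and it was seen with 1 of its 2 probes. The brighter probe (A_15_P178236) lay at 6.69 and 6.56 on the WT arrays and at 10.28 and 10.07 on the Bmp2b arrays. It is called brighter by its mean over all 4 arrays, which holds the rise itself. In WT the 2 probes were nearly level, with raw values of 95 and 75 against 79 and 72. The groups did not overlap, and the difference was 3.55 ± 0.14 (SE), or 11.7-fold. Only 6 of the 24454 tested probes, this one included, had a log2 fold change as high. The dimmer probe (A_15_P579297) lay at 6.56 and 6.54 in WT and at 6.86 and 7.22 in Bmp2b, where array 1 was below background. Its raw value on array 1 was 43, against 79 and 72 in WT, so a rise on that array cannot be read from it. Over both Bmp2b arrays the normalized difference was 0.49 ± 0.16 (SE), or 1.41-fold. This value moved with the processing: it was 1.15 with scaling to the 75th percentile and 1.22 with the processed intensities, where the brighter probe had 3.77 and 5.0.

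The disagreement between the sesn2 probes held on each Bmp2b array taken alone. Against the WT mean the brighter probe was higher by 3.65 on array 1 and 3.44 on array 2, and the dimmer one by 0.31 and 0.67. The 0.31 comes from a value below background. Across 4266 genes with more than 1 tested probe, the median spread of log2 fold changes within a gene was 0.46, and that of sesn2 was 3.06. A spread as large was seen in 6 of these genes (0.141%), and sesn2 was the only one of the 6 with every probe above 0. The other genes, named after their values were seen, were josd2, olfm2a, cirbpb, hnrnpaba and cfl1, with spreads of 3.15 to 3.66. The size of the sesn2 spread rests on the fold change for which sesn2 was picked, so its place among the 4266 genes describes that choice. The position of each probe on the sesn2 transcript was not analysed here, so which one follows the whole of the gene's RNA was not tested.

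**Figure D1:**
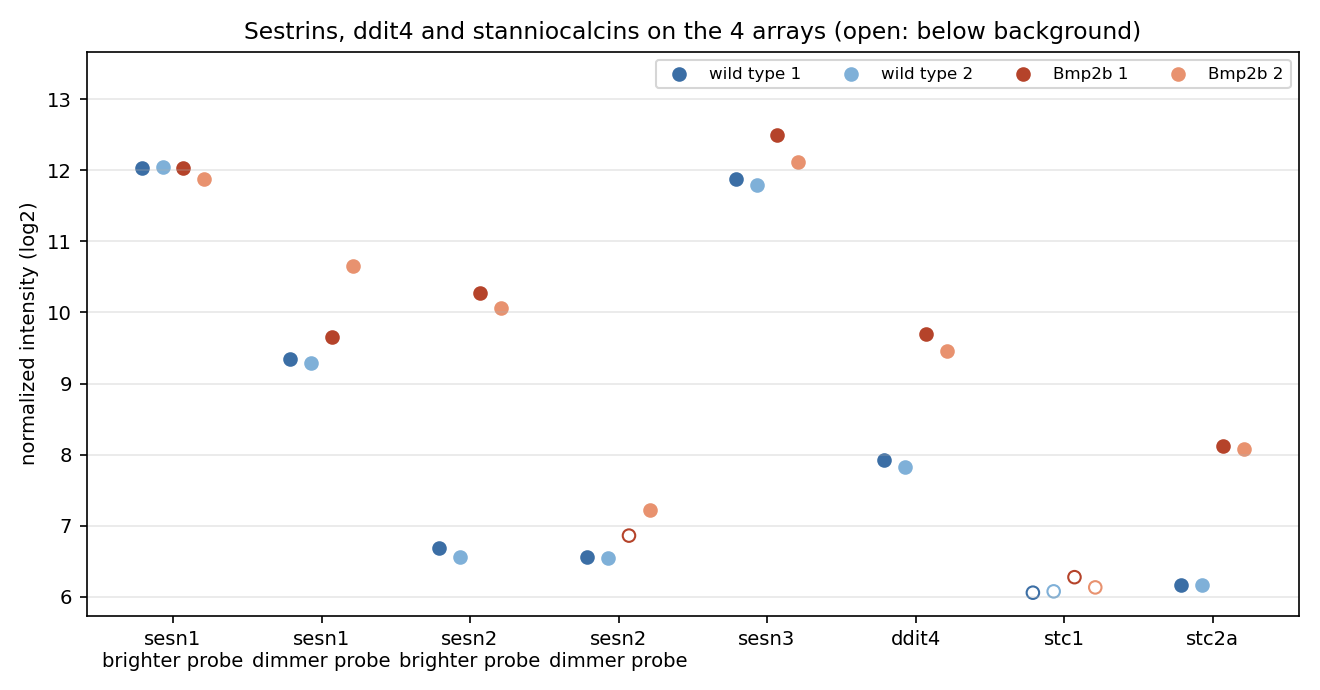
Normalized log2 intensity (vertical axis) of each of the 8 probes of the 6 genes on the 4 arrays, blue for wild type and red for Bmp2b, with open circles for values below background. The brighter sesn2 probe, ddit4 and stc2a stand clear of wild type on both Bmp2b arrays, while the dimmer sesn2 probe lies at 6.86 and 7.22 and stc1 is open on every array.

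sesn1 was represented by 2 bright probes that also differed. Its brighter probe (A_15_P176731) lay at 12.03 and 12.05 in WT and at 12.03 and 11.88 in Bmp2b. The groups overlapped, and the difference was -0.08 ± 0.12 (SE). The dimmer probe (A_15_P130311) lay at 9.35 and 9.29 in WT and at 9.66 and 10.66 in Bmp2b, a difference of 0.84 ± 0.37 (SE). Its raw values were 1081.5 and 1009.5 in WT, 254 on Bmp2b array 1 and 1534.5 on array 2. Here the Bmp2b arrays were 1.00 apart, with array 2 far above array 1, and 6.58% of tested probes had a gap between the Bmp2b arrays at least as wide. The spread between the sesn1 probes was 0.92, which 19.2% of the 4266 genes reached.

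sesn3, the FoxO-linked paralogue, was bright in every heart sample and differed little. Its single probe (A_15_P109981) lay at 11.88 and 11.80 in WT and at 12.50 and 12.11 in Bmp2b. After normalization both Bmp2b arrays were above both WT arrays, by 0.47 ± 0.17 (SE) on average, or 1.39-fold, and the Bmp2b arrays were 0.38 apart. Before it, the raw values were lower in Bmp2b, at 1967.5 and 4158.5, than in WT, at 6616 and 6170. Scaling each array to its 75th percentile in place of quantile normalization left a difference of 0.19.

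The fourth zebrafish sestrin on the array, sesn4, was not among the picked genes and was looked at after its values were seen. It lay at 7.14 and 7.13 in WT and at 6.46 and 6.41 in Bmp2b, with Bmp2b array 1 below background. It fell by 0.70 ± 0.11 (SE) on the log2 scale (limma adjusted p = 0.0321), opposite in direction to sesn2. The call was lost with the WT arrays as 1 sample, as was that of bmp2b, so that loss is not particular to sesn4. It was also lost with 75th percentile scaling, at a difference of -0.07 (limma adjusted p = 0.896).

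**Figure D2:**
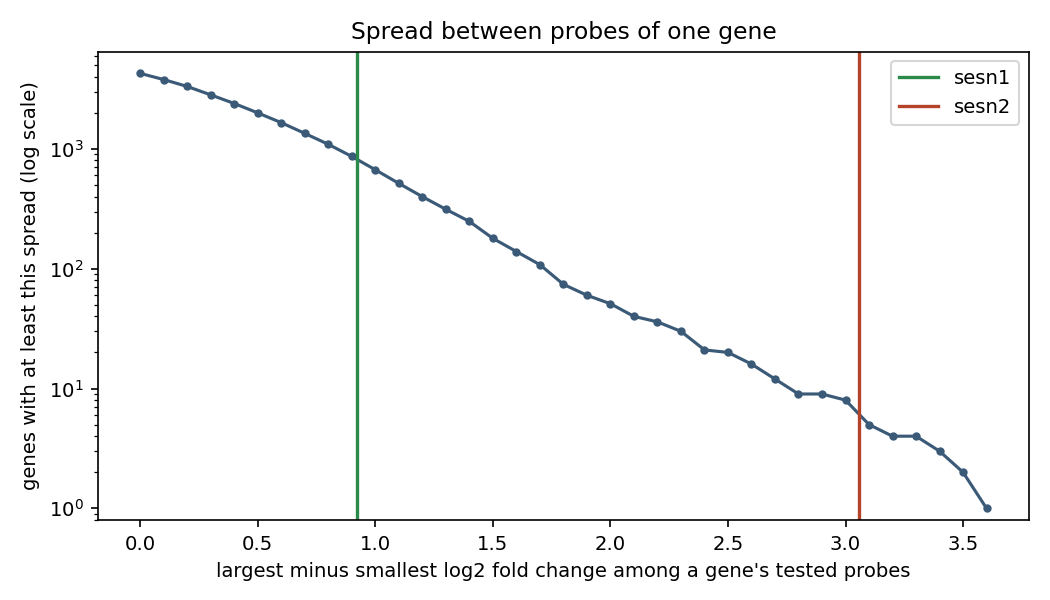
Number of genes (vertical axis, log scale) whose tested probes differ in log2 fold change by at least the amount on the horizontal axis, for 4266 genes with more than 1 tested probe. The lines mark sesn1 at 0.92, inside the bulk of genes, and sesn2 at 3.06, which 6 genes reach. Because sesn2 was picked for its fold change, its place describes that choice.

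ddit4, which acts on mTORC1 through Tsc1-Tsc2, was higher on both Bmp2b arrays. Its single probe (A_15_P194351) lay at 7.92 and 7.82 in WT and at 9.70 and 9.46 in Bmp2b. The groups did not overlap, and the gaps within groups, 0.11 in WT and 0.24 in Bmp2b, were small beside the difference of 1.71 ± 0.14 (SE), or 3.27-fold. In raw intensity the picture differed between the Bmp2b arrays. The raw values were 347 and 303 in WT, 262 on Bmp2b array 1 and 651 on array 2, so that on array 1, the dimmest of the 4, ddit4 was at 0.806 of the WT mean before normalization. By rank within the array, ddit4 was brighter than 72.9% and 72.1% of probes on the WT arrays and than 84.2% and 82.9% on the Bmp2b arrays. Quantile normalization sets levels from these ranks, so they restate the normalized values and are not a separate check.

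The ranks of the other probes followed the normalized values for the same reason. Ranks also depend on how many probes lie at background. The stc1 probe, below background on every array, ranked at 41.3% and 42.3% in WT and at 49.2% and 45.2% in Bmp2b. The brighter sesn2 probe moved from 59.3% and 57.1% of probes in WT to 87.2% and 86.2% in Bmp2b. sesn3 stayed at 94.1% and 93.8% in WT against 95.9% and 94.8% in Bmp2b, and the brighter sesn1 probe at 94.6% on both WT arrays against 94.6% and 94.1%. Raw intensity of the brighter sesn2 probe was also higher before any scaling, at 95 and 75 in WT against 394 and 996 in Bmp2b.

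**Figure D3:**
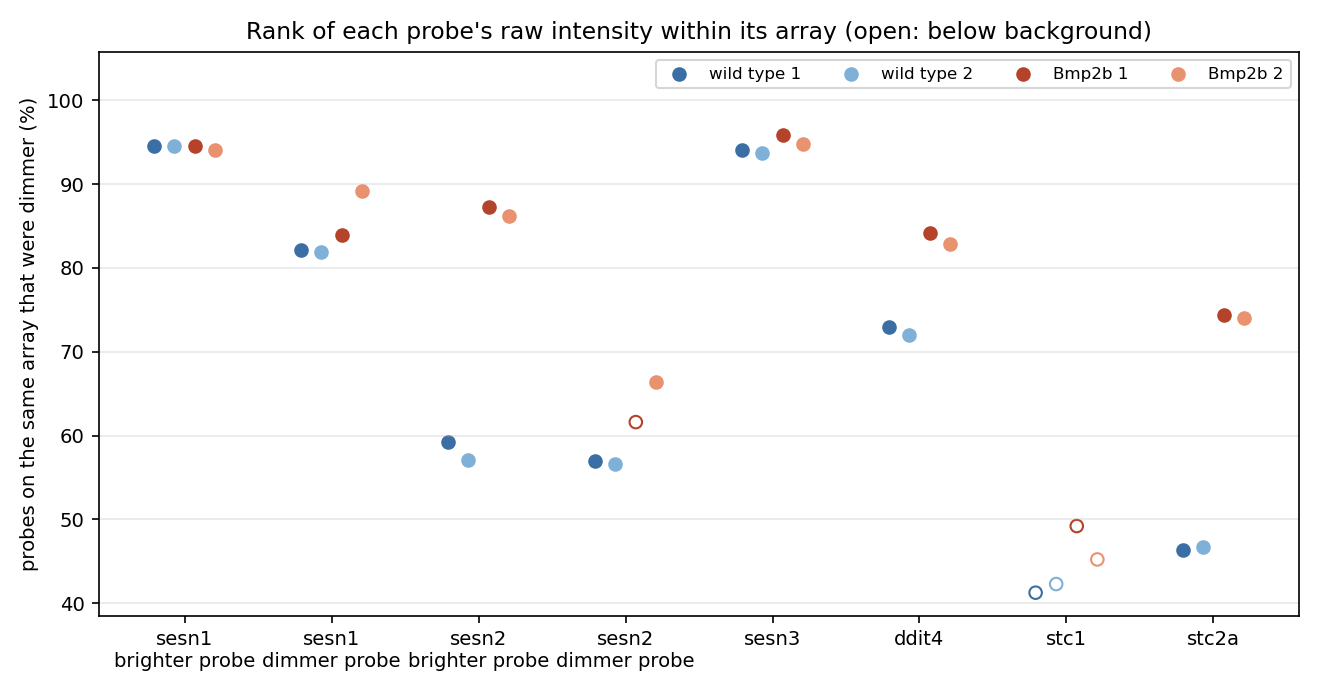
Share of all 43603 probes on the same array that were dimmer than each probe (vertical axis, percent), from raw intensities. Quantile normalization sets levels from these ranks, so they are not a separate check, and they depend on how many probes lie at background. Every probe but the brighter sesn1 probe ranks higher on both Bmp2b arrays than on both wild-type arrays, including stc1, which is below background on every array. The brighter sesn2 probe, ddit4 and stc2a move furthest, and sesn3 and the brighter sesn1 probe stay between 93.8% and 95.9%.

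Of the stanniocalcins, stc2a was detected and stc1 was not. The stc2a probe (A_15_P114719) lay close to background in WT, with raw intensities of 40 and 39 against limits of 33 and 32. Its normalized levels were 6.16 and 6.17 in WT and 8.12 and 8.08 in Bmp2b, which gives 1.93 ± 0.11 (SE), or 3.82-fold. The Bmp2b arrays were 0.05 apart, and 91.1% of tested probes had a gap at least as wide, and the raw values of 88 and 222 were above both WT values. Its rank rose from 46.3% and 46.7% of probes to 74.3% and 74.1%. The size of the log2 fold change moved with the processing, and the cause was not tested: it was 1.75 without background correction, 2.5 with scaling to the 75th percentile and 4.34 from the authors' processed intensities.

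The stc1 probe (A_15_P193026) was not above background on any array, with raw values of 32 and 32 in WT and 35 and 36.5 in Bmp2b, and was not tested. The related stc1l, another stanniocalcin 1 gene, had 2 probes that were above background on 1 array and on none of the 4, and was not tested either. Of the 8 probes, 7 thus entered the fit, 6 were above background on all 4 arrays, and 6 of the 7 had groups that did not overlap, as did 67.6% of all tested probes. At least 2-fold higher without overlap were 3 of the 7 (the brighter sesn2 probe, ddit4 and stc2a), against 4.34% of all tested probes. By limma's adjusted threshold of 0.05, the same 3 probes were called higher with the WT arrays as 2 samples (against 6.82% of all tested probes), 0 with the WT arrays as 1 sample or slide as a random block, and 1, the brighter sesn2 probe, with the WT arrays as 1 sample (trend and robust). These 3 are the genes for which the set was picked, so the counts describe the choice. The setting with the WT arrays as 1 sample (trend and robust), here and below, was chosen after the data were seen.

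**Figure D4:**
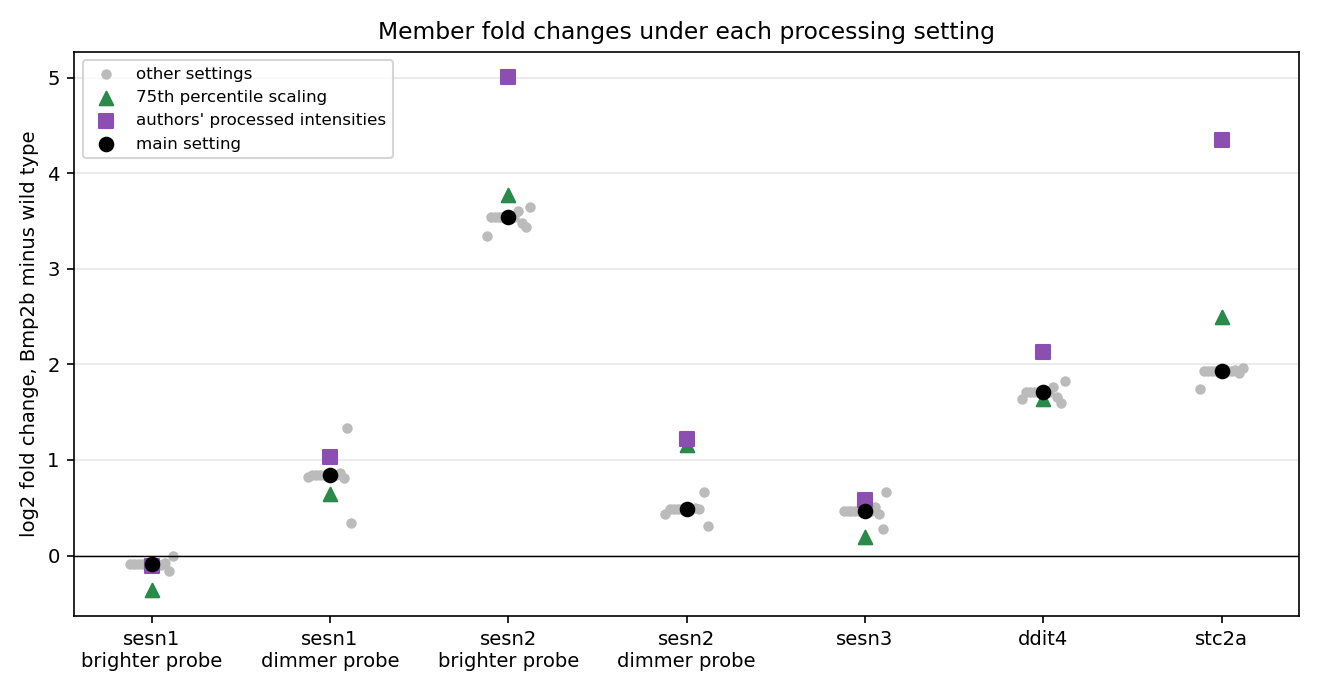
Log2 fold change, Bmp2b minus wild type (vertical axis), of the 7 tested probes under the main setting (black), scaling to the 75th percentile (triangles), the authors' processed intensities (squares) and the other settings (grey, arrays left out included). The brighter sesn2 probe spans 3.35 to 5.0, ddit4 1.59 to 2.13 and stc2a 1.75 to 4.34, all above 0, and the brighter sesn1 probe stays below 0 by at most 0.36.

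Markers of heart muscle and of other cell types are given here by whole lists, and the single genes among them were named after their values were seen. All 11 heart muscle markers on the array were above background on all 4 arrays. So were all 7 neural and all 5 endothelial markers tested, so detection alone does not identify the tissue. The heart muscle markers had median differences from WT of -0.02 on Bmp2b array 1 and -0.37 on array 2. Of these 11 genes, the atrial myosin gene myh6 rose by 1.94, the ventricular myosin gene myh7 fell by 0.73 and the troponin gene tnnt2a fell by 1.14 by limma's adjusted p, and 8 did not pass, among them myl7 at -0.11. The other tnnt2a probe, at -0.43, did not pass. Among all 11376 tested genes 9.00% were called higher and 8.22% lower. The 7 neural markers tested had a median difference from WT of -1.38 on Bmp2b array 1 and 1.34 on array 2, and their summed linear level was 7793 to 7935 in WT and 3513 and 14930 in Bmp2b. For 9 epidermal markers the medians were -0.13 and 1.76, with sums of 105950 to 109110 in WT and 235650 and 248610 in Bmp2b. The keratin gene krt8, the brightest of them and the only one called (1.08), made up most of each of these sums. It lay at 16.53 and 16.57 in WT and at 17.81 and 17.45 in Bmp2b. Before normalization its raw values were lower in Bmp2b, at 123044 and 141002, than in WT, at 168672 and 170243. The 6 endoderm and yolk markers had medians of -0.13 and 1.23 (sums of 1476 to 1483 in WT, 1297 and 3998 in Bmp2b), and the 4 pharyngeal arch and neural crest markers -0.10 and 1.7 (770.3 to 771.4, then 749.4 and 3105). Probes of apoa1b, ttr and crestin were below background on every array.

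Markers of the vessel lining, blood and skeletal muscle each held 1 gene called lower and 0 called higher by limma's adjusted p, with 4, 1 and 2 genes at an unadjusted p under 0.05. Of all 11376 tested genes, 9.00% were called higher and 8.22% lower by limma's adjusted p, and 4367 had an unadjusted p under 0.05 in limma. With so few markers in a list, 1 called gene cannot be told from these shares. The 5 endothelial markers had medians of -0.36 and -0.74 on the Bmp2b arrays, with sums of 31826 to 32460 in WT and 36089 and 25169 in Bmp2b, and the regulator gene lmo2 fell by 1.1. For 6 blood markers the medians were 0.13 and -0.67 (sums of 13099 to 13376, then 11039 and 7510), and tal1, a blood regulator gene, fell by 0.94. For 8 skeletal muscle markers they were -0.13 and 0.16 (sums of 118290 to 150230, then 78510 and 63598), and the actin gene acta1b fell by 1.53. The other acta1b probe, at -0.46, did not pass. With the WT arrays as 1 sample, 0 of the markers of any list passed, and of the 7 called genes myh6 alone passed when trend and robust were added.

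All 7 neural markers were higher on Bmp2b array 2 than on array 1. So were all 6 endoderm and yolk markers, all 4 pharyngeal arch and neural crest markers and 8 of 9 epidermal markers. Of all 11376 tested genes, 5769 were higher on array 2. This is the direction of the gap at the dimmer sesn1 probe (1.00), and the part of any of these markers in that gap was not tested. The dimmer sesn2 probe, below background on array 1, was also higher on array 2, by 0.36. The brighter sesn2 probe, ddit4 and stc2a went slightly the other way, lower on array 2 than on array 1 by 0.21, 0.24 and 0.05. So did sesn3, by 0.38, and the brighter sesn1 probe, by 0.15. The 2 sesn2 probes thus split in this direction. In pooled hearts, more cells of a type and more RNA per cell cannot be told apart.

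To set the 6 genes among their pathways, 7 lists of other genes were counted, with 213 genes tested once each, by their brightest probe. Of these 21 were higher and 15 lower by limma's adjusted p, with a median log2 fold change of 0.01, where all 11376 tested genes also had a median of 0.01 and 9.00% of them were higher and 8.22% lower. With the WT arrays as 1 sample, 0 of the 213 passed in either direction. When the variance prior also followed intensity (trend and robust), a setting chosen after the data were seen, 3 passed as higher and 0 as lower. With the WT arrays as 2 samples, 89 of the 213 had an unadjusted p under 0.05 in limma, as did 4367 of all 11376 tested genes. The share of higher among called genes was 58.3%, and 88.9% with scaling to the 75th percentile (8 higher, 1 lower), a scaling that moved the median of all tested probes from -0.06 to 0.28. All 36 called genes but insra, of the FoxO list, kept their direction under the 3 other scalings.

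Among mTORC1 and its amino acid inputs, the pathway on which sestrins and Ddit4 act, 3 of 46 tested genes rose, 4 fell and 39 did not pass, with a median of 0.00. Among those that rose, eif4ebp3l, for a translation repressor of the 4E-BP family, had a log2 fold change of 1.38 ± 0.13 (SE; limma adjusted p = 0.0204). mlst8, a subunit of mTORC1, was below background on both WT arrays and at least 3.39-fold higher in Bmp2b (limma adjusted p = 0.0217). This probe entered the fit through the Bmp2b arrays alone, so its call is a description. The other mlst8 probe rose by 1.21 (limma adjusted p = 0.0206). sh3bp4a, whose mammalian relative binds Rag GTPases, fell by 0.81 ± 0.11 (SE; limma adjusted p = 0.0273), and its other 3 probes, at -0.37 to -0.31, did not pass. The kinase gene mtor itself had 5 tested probes that went both ways, from -0.66 to 0.49. The brightest, at 0.49 ± 0.11 (SE; limma adjusted p = 0.0592), did not pass, and the one at -0.66 did (limma adjusted p = 0.0393). tsc2, through which Ddit4 acts, had a log2 fold change of 0.74 ± 0.16 (SE; limma adjusted p = 0.0545) and did not pass.

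**Figure D5:**
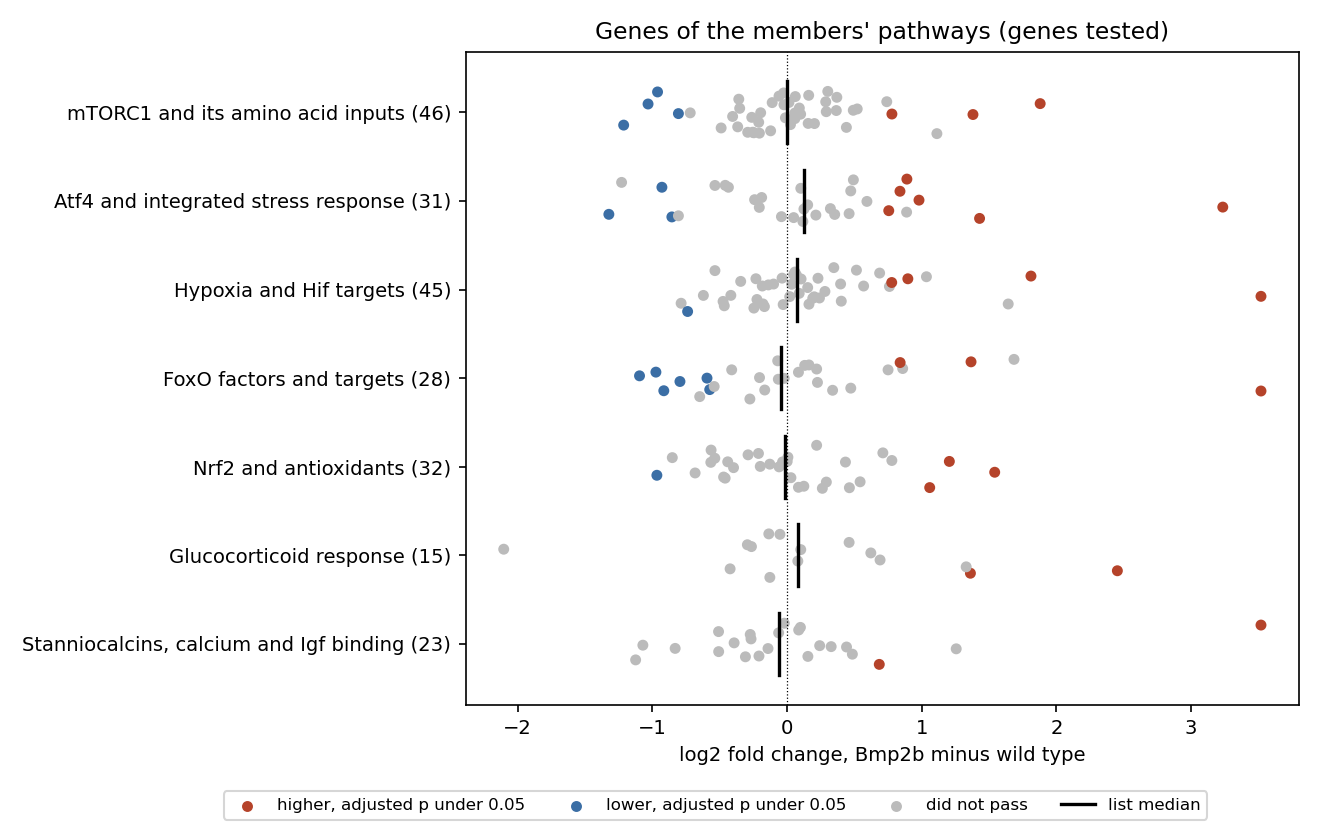
Log2 fold change (horizontal axis) of every tested gene in 7 pathway lists, the 6 picked genes left out, red for genes higher and blue for genes lower by limma's adjusted p with the wild-type arrays as 2 samples. Black bars mark list medians, which lie between -0.06 and 0.12. igfbp1a, at 3.52, belongs to 3 of the lists.

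The Atf4 and integrated stress response list had 6 of 31 genes higher, 3 lower and 22 not passing, with a median of 0.12. The neutral amino acid transporter gene slc1a4 lay at 9.20 and 9.21 in WT and at 12.59 and 12.28 in Bmp2b, a rise of 3.24 ± 0.15 (SE; limma adjusted p = 0.0138) that also passed with the WT arrays as 1 sample (trend and robust). Its other 3 probes rose too, by 2.73, 0.61 and 0.65. slc7a5, for the leucine transporter subunit LAT1, rose by 1.43 ± 0.16 (SE; limma adjusted p = 0.0218). chac1, a glutathione-degrading enzyme gene that Atf4 induces in mammals, fell by 1.32 ± 0.12 (SE; limma adjusted p = 0.0192). The transcripts of Atf4 itself did not pass: atf4a had 0.21 ± 0.11 (SE; limma adjusted p = 0.239), and the brighter atf4b probe 0.12 ± 0.27 (SE; limma adjusted p = 0.764), and 75th percentile scaling turned both signs negative.

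Among hypoxia and Hif targets, 4 of 45 genes rose, 1 fell and 40 did not pass, with a median of 0.07. igfbp1a, for an Igf-binding protein induced by low oxygen in zebrafish embryos, lay at 8.59 and 8.60 in WT and at 12.44 and 11.79 in Bmp2b. It rose by 3.52 ± 0.25 (SE; limma adjusted p = 0.0177), and its other 2 probes by 3.73 and 2.97, and it passed with the WT arrays as 1 sample (trend and robust). The collagen prolyl hydroxylase gene p4ha1b rose by 1.81 ± 0.24 (SE; limma adjusted p = 0.0273) and pfkfb4b, for a regulator of glycolysis, by 0.90 ± 0.11 (SE; limma adjusted p = 0.0234), with other probes at 1.13 and 0.08 that did not pass. In the same list p4ha2, named after its values were seen, went the other way from p4ha1b. It was the 1 gene of this list that fell. Its brightest probe was called lower, at -0.74, and so were its other probes, at -1.47 and -1.17 (limma adjusted p = 0.0278 and 0.0217 for these). The transcript of the oxygen-regulated factor hif1ab did not pass (0.57 ± 0.12, SE; limma adjusted p = 0.0529). Its dimmer probe had the opposite sign, at -0.55, but was below background on both Bmp2b arrays, which limits the size and sign of that value.

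FoxO factors and targets went both ways: among 28 tested, 3 rose, 6 fell and 19 did not pass, with a median of -0.04. igfbp1a is in this list as well, and the repressor gene bcl6ab fell by 1.1 ± 0.12 (SE; limma adjusted p = 0.0216). ptena, for a lipid phosphatase that opposes Akt, was not above background on either Bmp2b array and at least 1.36-fold lower (limma adjusted p = 0.0247). The ptena probe entered the fit through the WT arrays alone, so its call is a description.

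In the Nrf2 and antioxidant list, which covers the redox side of sestrin function, 3 of 32 rose, 1 fell and 28 did not pass, with a median of -0.02. The heme oxygenase gene hmox1b rose by 1.54 ± 0.13 (SE; limma adjusted p = 0.0190) and the peroxiredoxin gene prdx6 by 1.20 ± 0.11 (SE; limma adjusted p = 0.0198). keap1a, for the inhibitor of Nrf2, fell by 0.97 ± 0.12 (SE; limma adjusted p = 0.0247), and its other probes fell by 1.41 and 0.73. Of 15 glucocorticoid-response genes 2 rose, 0 fell and 13 did not pass, with a median of 0.08. An unadjusted p under 0.05 in limma was seen for 6 of the 15, against 4367 of all 11376 tested genes. The 2 that rose were nfkbiaa, for an inhibitor of NF-kappaB (2.45 ± 0.13, SE; limma adjusted p = 0.0138), which passed with the WT arrays as 1 sample (trend and robust), and cebpd (1.36 ± 0.28, SE; limma adjusted p = 0.0498). The other cebpd probe, at 0.78, did not pass.

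Genes of calcium control and Igf binding, the processes tied to stanniocalcins, had 2 of 23 higher, 0 lower and 21 not passing, with a median of -0.06. An unadjusted p under 0.05 in limma was seen for 7 of the 23, against 4367 of all 11376 tested genes. Besides igfbp1a, igfbp2a rose by 0.68 ± 0.11 (SE; limma adjusted p = 0.0341). The calcium-sensing receptor gene casr was below background on all 4 arrays.

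Across the 4 arrays, each profile set to 0 at its WT mean, the named genes nearest to the brighter sesn2 probe by Euclidean distance were igfbp1a (0.330 log2 units), the fatty acid-binding protein gene fabp4a (0.334) and slc1a4 (0.455). fabp4a lay at 9.16 and 8.97 in WT and at 12.45 and 12.32 in Bmp2b. Nearest to ddit4 were notum1b, for a Wnt-inactivating enzyme (0.0846), asap2b (0.0847) and the mesenchymal homeobox gene prrx1a (0.102), with log2 fold changes of 1.68, 1.71 and 1.72. Nearest to stc2a were tmem14a (0.0525), the atrial myosin gene myh6 (0.0527) and nme3 (0.0774), with 1.96, 1.94 and 1.94. With 4 arrays in 2 groups, this likeness is largely that of the fold change.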

How the data were processed

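Hearts from 2 WT and 2 Bmp2b samples, from 200 ng of RNA each (integrity number above 8), were measured on 4 Cy3 arrays. The authors deposited raw median intensities of 43803 spots, per the file headers, and processed intensities whose background step is not given in the sources used here. Agilent Feature Extraction is named in the submitters' processing notes. No background or saturation column was given. Raw intensities were corrected by normexp (offset 50), put on the log2 scale and quantile-normalized, then averaged over each probe's spots. A probe above background on at least 2 arrays was tested by limma 3.58.1 in R 4.3.3 (lmFit and eBayes, two-sided, Benjamini-Hochberg over 24454 probes, threshold 0.05), and the fit was tested on simulated data. The platform's annotation named 23667 probes; 19936 were unnamed. A gene below background on a whole group is given as "at least", against the lowest value above background on each array. A gene's brighter and dimmer probes were told apart by mean normalized intensity, and percentile ranks were taken within an array; neither measures amounts of RNA between genes.

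The 6 genes and 7 lists were chosen with earlier results of these data known. Named were the 6 genes, up to 3 called genes per list with the smallest p, fixed partners (pappaa, and a plain atf4 symbol beside atf4a and atf4b, were not analysed here), bmp2b, and the 3 nearest profiles; a further list and a partner are not reported here. The main fit did not pair samples by the numbers of the labels. The deviations of same-numbered arrays correlated at 0.0935, which cannot decide on pairing if the WT arrays hold the same RNA. Alternatives covered scaling, background, filter, variance prior, slide, replicate number and arrays left out. Sequences were not analysed here.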

Additional observations from a re-analysis of the deposited data

How the results depend on the processing

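None of the 7 tested probes changed direction under the alternatives. Of 97 recomputed fold changes, 11 moved by more than the spread between replicates, all with another scaling, the processed intensities or no background correction. Only these alternatives could move one so far. The filter, variance prior, slide, replicate block and WT arrays as 1 sample leave a fold change as it was. Leaving out an array shifts it by no more than that spread. The share moved among all 97 is therefore low by design. At least 2-fold higher without overlap were 3 of the 7 probes. This was 5 with the processed intensities, 4 with scaling to the 75th percentile and 3 to 4 with arrays left out. All probes gave 1668 higher and 2208 lower (43.0% higher). Scaling to the 75th percentile gave 493 and 378 (56.6% higher) and 8 and 1 pathway genes; the processed intensities gave 1067 higher and 1562 lower probes (40.6% higher) and 14 and 4 pathway genes (77.8% higher); the mean over probes gave 25 higher and 25 lower pathway genes. With the WT arrays as 1 sample, and with slide as a random block (assumed correlation 0.5), there were 0 higher and 1 lower probe, and 0 and 0 pathway genes; with trend and robust added, a choice made after seeing the data, 76 and 113 probes, and 3 and 0 pathway genes. With 1 array left out, higher probes ranged from 0 to 7462, lower from 1 to 9565, and pathway genes from 0 to 76 higher and 0 to 72 lower: either WT array left out gave the 0s, either Bmp2b array the high counts, where the spread is that of the WT arrays alone and the lone array is assumed to vary like them. The replicate block gave 1347 higher and 1709 lower probes, and 22 and 14 pathway genes. Dim signal limits stc1, stc2a in WT and the dimmer sesn2 probe on Bmp2b array 1.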
